A study of Mus musculus with 6 samples.

Results

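The genes described here are 10 markers of fetal liver and of liver cancer, in Hepa1-6 cells depleted of Crebl2. They are Afp, Alb, Gpc3, Igf2, Dlk1, Igf2bp1, Igf2bp2, Igf2bp3, Lin28b and Hmga2, taken as a list by symbol out of 38481 annotated genes in the deposited counts. No measured value entered the choice of symbols by rule, although earlier results of these data were known when the list was drawn up. RNA was sequenced from 6 libraries of Hepa1-6, a mouse hepatoma line used as a model of liver cells. In 3 libraries the cells had been given siRNA against Crebl2, and in the other 3 an siRNA against Renilla luciferase (Luc), a sequence that mouse cells lack. Both groups received the siRNA with Lipofectamine RNAiMAX for 3 days in high-glucose medium with serum, and both are the same tumour line, so neither is normal fetal or adult liver. The comparison asks how expression differs once Crebl2, a bZIP factor of the CREB family, is depleted.

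Fetal hepatocytes secrete alpha-fetoprotein (Afp), whose gene is shut down after birth, whereas its neighbour albumin (Alb) stays on in adult hepatocytes. Glypican 3 (Gpc3), the growth factor Igf2 and the surface protein Dlk1 also mark hepatoblasts or fetal hepatocytes, and several of these genes return in liver tumours, for which they are called oncofetal. The RNA-binding proteins Igf2bp1, Igf2bp2 and Igf2bp3 control the stability and translation of fetal growth mRNAs. Lin28b blocks the maturation of let-7 microRNAs, which in turn repress Hmga2, Igf2bp1 and Lin28b itself.

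Library totals ran from 27082572 to 27710914 counts for Crebl2 siRNA and from 27385328 to 29158489 counts for Luc siRNA. Crebl2 itself averaged 30.4 ± 1.69 CPM with Crebl2 siRNA and 113 ± 0.858 CPM with Luc siRNA (SD, n = 3 each), so the targeted mRNA was lower in every library labelled as knockdown. CPM are counts scaled to a common library size, with the TMM correction for library composition. The deposited rows are transcripts, and 0.0697% of all counts lay on the 9950 rows whose every base is shared with another row. A gene's count therefore reflects mainly its countable bases, those that no other deposited row covers on either strand. Bases shared only with a row on the opposite strand may also have been counted, as the use of strand in counting is not known. Of the labelled cell type's defining markers, Alb and transferrin were well counted, but the other hepatocyte proteins transthyretin (Ttr, 2 to 11 counts per library) and apolipoprotein B (Apob, 1 to 7 counts over 13934 bases of its own) were near background in both groups. Summed over 7 hepatocyte markers, the level was 647 to 716 CPM with Crebl2 siRNA and 718 to 803 CPM with Luc siRNA. Nearly all of it was Alb and Trf. Alb was at 517 to 573 CPM with Crebl2 siRNA and 558 to 614 CPM with Luc siRNA. Trf was at 128 to 141 CPM with Crebl2 siRNA and 159 to 188 CPM with Luc siRNA. Of the 3 tested markers Trf was called lower, and Alb and Apoa1 were not called, beside 20.1% lower over all tested genes. The 5 cholangiocyte markers summed to 661 to 721 CPM with Crebl2 siRNA and 691 to 755 CPM with Luc siRNA, and 7 stellate and fibroblast markers summed to 66.1 to 74.6 CPM with Crebl2 siRNA and 53.8 to 62.5 CPM with Luc siRNA. Macrophage markers summed to at most 2.40 CPM and endothelial markers to at most 0.396 CPM in any library, and several markers were at 0 throughout. These were Col3a1 (5423 countable bases), the beta-globins Hbb-bt (703) and Hbb-bs (628), Ptprc (429), Pdgfrb (126), Tek (48) and the hepatocyte factor Hnf4a, which has only 6 countable bases.

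The link between let-7 and its targets rests on a short seed, so the sequences are shown first. The mature let-7 family (RefSeq, GRCm38.p6) shares the seed GAGGUAG at bases 2 to 8 in 10 of 11 distinct entries. Capitals mark that seed in 3 of them.
mmu-let-7a-5p: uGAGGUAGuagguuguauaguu
mmu-let-7b-5p: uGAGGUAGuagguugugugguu
mmu-miR-98-5p: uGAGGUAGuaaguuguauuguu

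Its match, CTACCTC, was searched in the annotated 3' UTR of each gene's leading transcript, on the transcript's strand. Hmga2, Igf2bp1 and Lin28b held 4 matches each, Igf2bp2 and Igf2bp3 held 1 each, and Afp, Alb, Gpc3, Igf2 and Dlk1 held 0. Among 9843 tested genes with a 3' UTR, 10.2% held at least 1 match and 8 genes, or 0.0813%, held at least 4. Longer 3' UTRs have more room for a match. Those of Igf2bp1 (6337 bases) and Lin28b (4445 bases) were far above the median of 1068 bases. Examples follow with 10 bases on either side (GRCm38), capitals marking the seed match.
Igf2bp1, chr11:95959348-95959374, minus strand: gtgctattaaCTACCTCagccccagag
Igf2bp1, chr11:95958754-95958780, minus strand: aatggatgaaCTACCTCagtcctcaca
Lin28b, chr10:45381013-45381039, minus strand: ggcgggaagtCTACCTCatgcaagcac
Hmga2, chr10:120364215-120364241, minus strand: cattcaatttCTACCTCagcatcagtt
Igf2bp2, chr16:22059464-22059490, minus strand: caaataaaagCTACCTCaggtgttttt
Igf2bp3, chr6:49086778-49086804, minus strand: ttttactcaaCTACCTCaggtattcag
In 3 of the 4 Igf2bp1 sites, and in the single sites of Igf2bp2 and Igf2bp3, the match was followed by an A, the base that lies opposite the first base of the microRNA. This held for 1 of 4 sites in Lin28b and 1 of 4 in Hmga2. A match is a description and does not show that a site is used.

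Afp and Alb are neighbours on the plus strand of chromosome 5, Alb at 90460897 to 90476602 and Afp at 90490737 to 90508907, with 14134 bases between them (GRCm38). Their RefSeq promoter windows run from 250 bases before to 50 bases after the RefSeq start, which lies at 90490714 for Afp and 90460870 for Alb, 23 and 27 bases before the GENCODE starts just given. They are shown because Afp was called higher and Alb was not called, as described further on. Whether the windows bear on this was not tested. Capitals mark GTTAAT, the half-site of the hepatocyte factors HNF1.
Afp, chr5:90490464-90490763, plus strand: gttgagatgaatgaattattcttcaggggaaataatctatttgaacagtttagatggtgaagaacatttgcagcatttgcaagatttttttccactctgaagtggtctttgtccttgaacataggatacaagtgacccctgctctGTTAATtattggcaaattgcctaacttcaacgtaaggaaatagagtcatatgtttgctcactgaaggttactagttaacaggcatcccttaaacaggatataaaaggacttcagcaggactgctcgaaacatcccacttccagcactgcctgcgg
Alb, chr5:90460620-90460919, plus strand: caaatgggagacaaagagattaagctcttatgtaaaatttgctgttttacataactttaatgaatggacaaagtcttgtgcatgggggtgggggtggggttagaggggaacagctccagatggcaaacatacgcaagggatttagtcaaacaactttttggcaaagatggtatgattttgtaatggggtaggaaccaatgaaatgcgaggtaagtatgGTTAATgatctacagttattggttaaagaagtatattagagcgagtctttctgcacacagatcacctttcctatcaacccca

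Both windows held 1 GTTAAT, starting 105 bases before the RefSeq start of Afp and 32 bases before that of Alb. Of 32851 promoter windows of the same length, 7.10% held this motif on either strand. The CREB-type motif TGACGTCA, present in 1.79% of all windows, was in none of the windows of the 9 matched members. Its inner half-site TGACG, in 20.8% of windows, was in the window of Dlk1 and in 2 of the 4 windows of Igf2. The E-box CACGTG, the motif of Myc and related factors, was in 7.15% of all windows, with 2 matches for Igf2bp3 and 1 for Lin28b.

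Of the 10 members, 7 had enough counts to be tested, and 4 of these 7 changed at an adjusted p under 0.05. Afp and Igf2bp1 rose, and Gpc3 and Igf2bp3 fell. Over all 11616 genes tested, 38.9% were called, 18.8% higher and 20.1% lower, so calls among the members were not far from the background. Groups did not overlap for the same 4 members, against 48.8% of all tested genes. The 3 members not tested were Igf2, Dlk1 and Hmga2. Separate cultures are not stated in the labels, so the spread that enters each p-value may be technical.

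**Figure D1:**
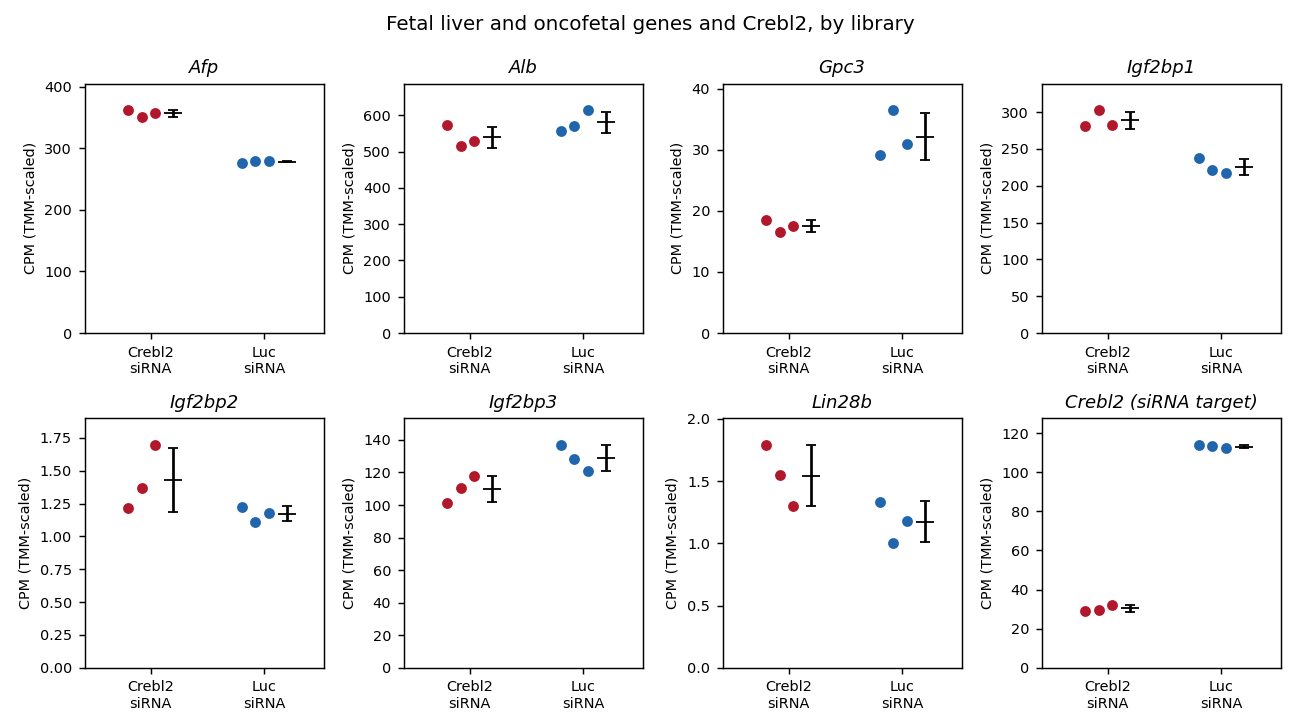
CPM (y axis, TMM-scaled, from 0) of the 7 tested members and of Crebl2 in each library (points), with the mean ± SD (bars, n = 3) beside each group, Crebl2 siRNA in red and Luc siRNA in blue. The groups stand apart for Afp, Gpc3, Igf2bp1, Igf2bp3 and Crebl2, and overlap for Alb, Igf2bp2 and Lin28b.

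The mRNA of the fetal serum protein rose, while that of the adult one did not pass the test. Afp had 361, 351 and 357 CPM in the Crebl2 siRNA libraries, against 277, 279 and 279 CPM in the Luc siRNA libraries. Replicates lay close together and every Crebl2 siRNA library was above every Luc siRNA library. The means were 356 ± 5.29 and 278 ± 1.21 CPM (SD, n = 3 each), 28.2% higher with Crebl2 siRNA (log2 fold change 0.36, SE 0.0448; edgeR adjusted p = 9.26e-06). Afp was read from its only deposited transcript, all of whose 2063 bases are its own. In bulk RNA, a change in the share of cells that make a transcript and a change in its amount per cell cannot be told apart.

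Alb had 573, 517 and 529 CPM with Crebl2 siRNA, against 558, 572 and 614 CPM with Luc siRNA. The groups overlapped, and the log2 fold change of -0.11 (SE 0.0532) was not called (edgeR adjusted p = 0.125). That call turned on 1 library. Without Crebl2 siRNA replicate 1, the highest of its group, the log2 fold change was -0.15 and was called (edgeR adjusted p = 0.0345), within a range of 0.0345 to 0.451 over 13 alternative settings. Scaling between libraries cancels in the ratio of Afp to Alb counts within a library. It was 0.631, 0.679 and 0.675 with Crebl2 siRNA, against 0.496, 0.487 and 0.454 with Luc siRNA. All 3 knockdown ratios were the higher, by 0.47 on the log2 scale (SE 0.0515). The two-sided exact permutation p was 0.1, below which 3 against 3 libraries cannot go, and 0.125 after Benjamini-Hochberg adjustment over the 5 ratios tested.

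Gc and Afm, the other genes of the albumin family, were hardly counted. Gc, the vitamin D binding protein, had 6, 3 and 1 counts with Crebl2 siRNA, against 16, 13 and 22 counts with Luc siRNA, and was called lower (edgeR adjusted p = 0.00124), although only the Luc siRNA libraries reached the count filter. Afamin (Afm) had 9, 11 and 11 counts with Crebl2 siRNA and 2, 3 and 4 counts with Luc siRNA, too few to be tested. Gc was not tested under a filter of 1 CPM. Of the 3 family genes tested, 1 was called higher and 1, Gc, lower, beside 18.8% higher and 20.1% lower over all tested genes. Their median log2 fold change was -0.11.

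Gpc3 showed the largest change of the tested members. This heparan sulfate proteoglycan of the cell surface, on the minus strand of chromosome X (52272426 to 52613950), is a tissue marker of hepatocellular carcinoma. It had 18.6, 16.5 and 17.5 CPM with Crebl2 siRNA, against 29.1, 36.4 and 30.9 CPM with Luc siRNA. No knockdown library came near the lowest Luc siRNA library. The log2 fold change was -0.87 (SE 0.0871; edgeR adjusted p = 8.24e-07), and the mean CPM was 54.6% of that in Luc siRNA libraries. In absolute log2 fold change Gpc3 ranked above 94.1% of all tested genes, Afp above 70.1% and Igf2bp1 above 70.0%. All Gpc3 counts fell on the longer of its 2 transcript rows, of which 810 bases are its own, and the shorter row had 0 counts in every library. Gpc3 and Afp therefore moved in opposite directions, and their ratio within a library was 0.0515, 0.0471 and 0.0491 with Crebl2 siRNA, against 0.105, 0.131 and 0.111 with Luc siRNA. The difference of -1.23 on the log2 scale (SE 0.102) had an exact permutation p of 0.1, the smallest possible.

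The mRNAs of the 3 RNA-binding proteins did not move together. Igf2bp1 had 281, 302 and 283 CPM with Crebl2 siRNA, against 238, 221 and 217 CPM with Luc siRNA. It rose by 0.36 on the log2 scale (SE 0.052; edgeR adjusted p = 4.35e-05), with groups apart. Igf2bp3 had 102, 110 and 118 CPM with Crebl2 siRNA, against 137, 128 and 121 CPM with Luc siRNA. Here the groups came close, the highest knockdown library lying just under the lowest Luc siRNA library. Its log2 fold change was -0.23 (SE 0.0623; edgeR adjusted p = 0.00777).

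Igf2bp2, of whose 4043 exonic bases 1109, or 27.4%, were countable, was read at only 1.22, 1.37 and 1.69 CPM with Crebl2 siRNA, against 1.23, 1.11 and 1.18 CPM with Luc siRNA. The groups overlapped, and the log2 fold change of 0.28 (SE 0.215) was not called (edgeR adjusted p = 0.327). Its summed counts, 119 with Crebl2 siRNA and 98 with Luc siRNA, scaled by library size, gave a ratio of 1.22 (95% exact interval 0.923 to 1.61, counting error only), so a change of the size seen for Igf2bp1 was not detectable at this depth. Within a library, Igf2bp1 counts were 2.76, 2.74 and 2.40 times those of Igf2bp3 with Crebl2 siRNA, against 1.74, 1.72 and 1.80 times with Luc siRNA. The ratio was higher in all 3 knockdown libraries, by 0.59 on the log2 scale (SE 0.0684; exact permutation p = 0.1). Igf2bp3 over Igf2bp2 was lower by 0.50 (difference -0.50, SE 0.0941; exact permutation p = 0.1), and Igf2bp1 over Igf2bp2 differed by 0.09 (SE 0.148; exact permutation p = 0.5).

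**Figure D2:**
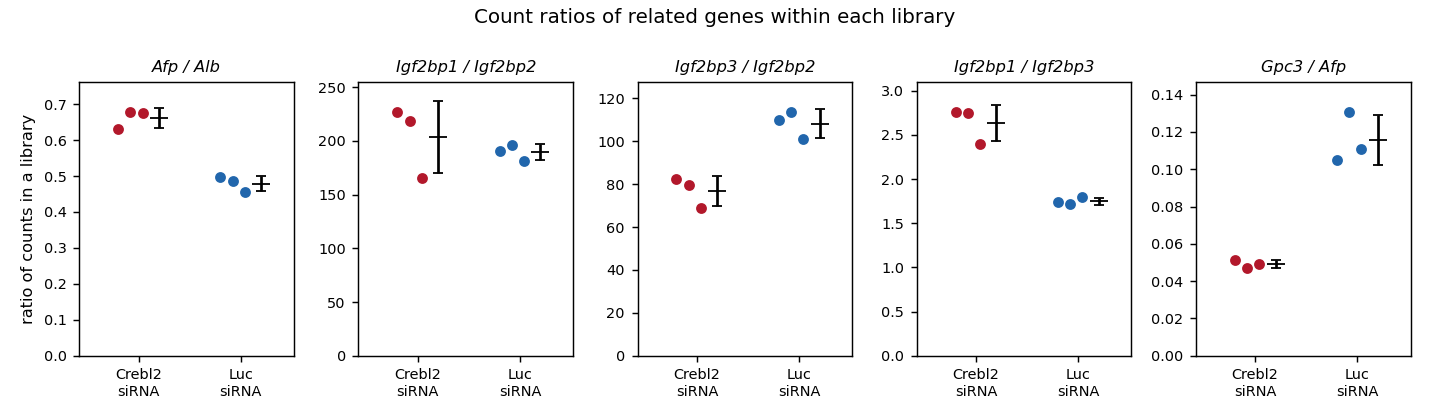
Ratio of counts of 2 genes within each library (y axes, linear from 0), Crebl2 siRNA in red and Luc siRNA in blue, with the mean ± SD of the ratios (n = 3). The groups stand apart for Afp over Alb, Igf2bp3 over Igf2bp2, Igf2bp1 over Igf2bp3 and Gpc3 over Afp, and overlap for Igf2bp1 over Igf2bp2.

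Malsu1, on the opposite strand, covers part of the Igf2bp3 exons, so 2816 of the 4345 bases of Igf2bp3 were countable as defined here. The bases under Malsu1 may also have been counted if the counting used strand, which is not known. The 3' UTR of Igf2bp3 also held the word GAAATGT, which an earlier look at these data had found more often in lowered genes. The shares given here come from the same libraries and are therefore no separate observation. Of genes called lower 29.2% held it, and 11.9% of those called higher, beside 16.5% of genes not called. Their 3' UTRs had median lengths of 1385, 985 and 994 bases in that order. Igf2bp2, Lin28b and Dlk1 held it too, whereas Afp, Alb, Gpc3, Igf2, Igf2bp1 and Hmga2 did not. Its part in the fall of Igf2bp3 was not tested.

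Igf2 and Dlk1 had 0 counts in all 6 libraries, and how much that says depends on the bases that could be counted. Igf2, on chromosome 7 (142650766 to 142666816, minus strand), has 5 transcript rows that overlap each other, so 1476 of 5249 exonic bases, or 28.1%, were countable. Most of these, 1126 bases, belong to a single row. Dlk1, on chromosome 12 (109452849 to 109463336, plus strand), has 7 rows and 482 countable bases of 4785, or 10.1%. A count of 0 allows up to 3 counts per library, or 0.0983 CPM per kilobase for the main Igf2 row and 0.248 for that of Dlk1. Transcripts without those bases could be present at any level.

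The long non-coding partners of the same imprinted loci offered more countable sequence. H19, next to Igf2, had 1804 countable bases and 3 counts in all, from Luc siRNA replicate 2. Meg3, next to Dlk1, had 12374 countable bases and 0 counts in every library. Of 22 genes in the imprinted gene network that these loci belong to, only 5 had enough counts to be tested. Decorin (Dcn), a matrix proteoglycan, fell to 117 ± 5.3 CPM with Crebl2 siRNA, against 171 ± 3.9 CPM with Luc siRNA (log2 fold change -0.55; edgeR adjusted p = 4.22e-07). In all, 1 of the 5 was called higher and 2 lower, beside 18.8% higher and 20.1% lower over all tested genes. The count called was only 1 without Luc siRNA replicate 2 and 1 without Luc siRNA replicate 3.

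Lin28b was detected at a low level in every library. It had 50, 43 and 36 counts with Crebl2 siRNA, against 38, 28 and 32 counts with Luc siRNA, which is 1.79, 1.55 and 1.30 CPM with Crebl2 siRNA and 1.33, 1.00 and 1.18 CPM with Luc siRNA. The lowest knockdown library lay just below the highest Luc siRNA library. The log2 fold change of 0.40 (SE 0.217) was not called (edgeR adjusted p = 0.164), and the scaled ratio of summed counts was 1.32 (95% exact interval 1.01 to 1.73, counting error only). Its paralog Lin28a, an embryonic form, had 1 to 5 counts per library. Hmga2 had 1, 1 and 0 counts with Crebl2 siRNA and 0 in each Luc siRNA library, but only 100 of its 3810 exonic bases, or 2.62%, could be counted. Its level in these cells is not known from the deposited counts. The 12 annotated let-7 and miR-98 hairpin rows together held 10, 3 and 13 counts with Crebl2 siRNA, against 11, 14 and 8 counts with Luc siRNA, and such reads do not measure mature microRNA.

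Levels can be compared between members only per length. Per kilobase of bases unique to the counted row, Alb was at 265 ± 14.5 CPM with Crebl2 siRNA and 286 ± 14.4 CPM with Luc siRNA, and Afp at 173 ± 2.57 CPM with Crebl2 siRNA and 135 ± 0.587 CPM with Luc siRNA (SD, n = 3 each). Igf2bp3 followed at 39.0 ± 2.9 CPM per kilobase with Crebl2 siRNA and 45.7 ± 2.81 with Luc siRNA. Gpc3 was at 21.6 ± 1.29 with Crebl2 siRNA and 39.7 ± 4.75 with Luc siRNA. Igf2bp1 was at 35.0 ± 1.45 with Crebl2 siRNA and 27.3 ± 1.31 with Luc siRNA. In Luc siRNA libraries the ranges of Igf2bp3 and Gpc3 overlapped, so their order is within the spread. In Crebl2 siRNA libraries the ranges of Igf2bp3 and Igf2bp1 overlapped, and Gpc3 lay below both. Igf2bp2 (1.48 ± 0.253 with Crebl2 siRNA and 1.22 ± 0.0607 with Luc siRNA) and Lin28b (0.286 ± 0.0455 with Crebl2 siRNA and 0.217 ± 0.0305 with Luc siRNA) came last in both groups. Over the whole row length Gpc3 would be at 7.91 with Crebl2 siRNA and 14.5 with Luc siRNA, below Igf2bp1 in both. Igf2bp3 would be at 25.3 with Crebl2 siRNA, below the 34.5 of Igf2bp1 with ranges apart, and at 29.6 with Luc siRNA, where its range overlaps that of Igf2bp1 at 26.9. The places of both Gpc3 and Igf2bp3 thus depend on the length used.

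**Figure D3:**
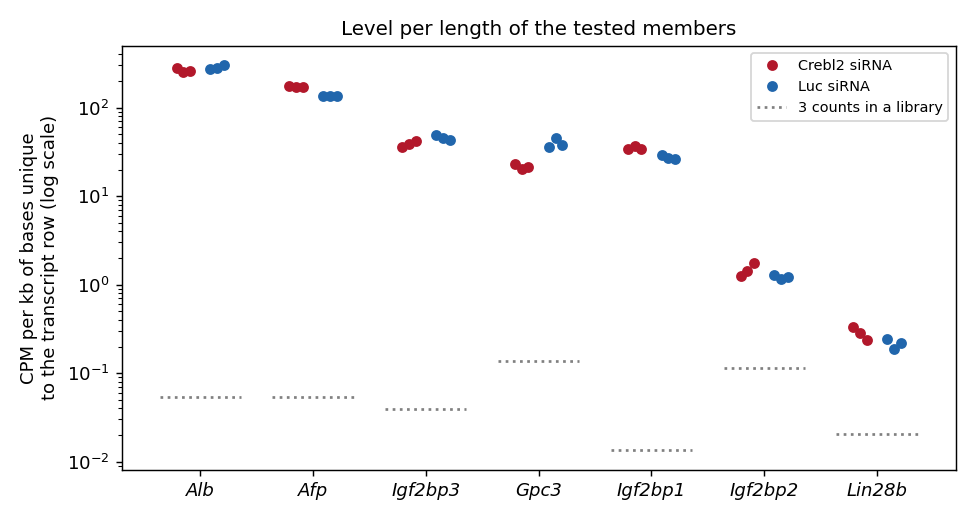
Level of the 7 tested members in CPM per kilobase of bases unique to the transcript row (y axis, log scale), by library (points), Crebl2 siRNA left in red and Luc siRNA right in blue. The dotted line is the level of 3 counts in a library. Alb and Afp lead, Igf2bp3, Gpc3 and Igf2bp1 form a middle group near 20 to 50, and Igf2bp2 and Lin28b are lowest.

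Of 19 regulators of Afp transcription listed, 13 were tested. Of these, 4 rose and 3 fell, beside 18.8% higher and 20.1% lower over all tested genes. Their median log2 fold change was -0.05, against 0.01 over all tested genes. Zhx2, which represses Afp, Gpc3 and H19 in adult mouse liver, fell to 126, 124 and 119 CPM with Crebl2 siRNA, against 154, 164 and 157 CPM with Luc siRNA (log2 fold change -0.37; edgeR adjusted p = 2.37e-05). The groups did not overlap. Zbtb20, another repressor of Afp in mouse liver, was not called (log2 fold change -0.16; edgeR adjusted p = 0.395) and its groups overlapped. Foxa3, a forkhead factor of hepatocytes, fell by 0.81 on the log2 scale (40.8 ± 3.53 CPM with Crebl2 siRNA and 71.6 ± 2.42 CPM with Luc siRNA; edgeR adjusted p = 8.67e-08). Cebpb, a bZIP activator of liver genes, fell by 0.46 (edgeR adjusted p = 4.95e-06), and the pocket protein gene Rb1 rose by 0.65 (edgeR adjusted p = 7.28e-06). Of 7 genes listed as linked to Zhx2 or Zbtb20 in mouse liver, 4 were tested. Afp and Lpl were called higher and Gpc3 lower, and Cd24a was not called. Lpl, the lipoprotein lipase gene, was at 1087 ± 64.1 CPM with Crebl2 siRNA and 641 ± 17.1 CPM with Luc siRNA (log2 fold change 0.76; edgeR adjusted p = 9.77e-09).

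Of 10 glypicans and heparan sulfate partners, 5 were tested, 2 higher and 1, Gpc3, lower, beside 18.8% higher and 20.1% lower over all tested genes. Sulf1, a heparan sulfatase, was at 0.767 ± 0.0569 CPM with Crebl2 siRNA and 0.263 ± 0.0708 CPM with Luc siRNA (log2 fold change 1.53; edgeR adjusted p = 0.00175). With 20, 23 and 21 counts with Crebl2 siRNA and 8, 9 and 5 counts with Luc siRNA, it passed the count filter only through the group where it was high, and it was not tested under a filter of 1 CPM. The call for Gpc4, another glypican (log2 fold change 0.13; edgeR adjusted p = 0.0306), was lost in each of 7 alternative settings, among them the removal of Crebl2 siRNA replicate 1 or 2 or of any Luc siRNA replicate. In the IGF axis 9 of 15 genes were tested, 4 higher and 1 lower, beside the same 18.8% and 20.1% over all tested genes. The median log2 fold change of the 9 was 0.18, against 0.01 over all tested genes. The number called was 3 without Crebl2 siRNA replicate 2, without Luc siRNA replicate 2 or without Luc siRNA replicate 3. The mRNAs of the secreted IGF-binding proteins Igfbp4 and Igfbp3 rose. Igfbp4 was at 1269 ± 50.4 CPM with Crebl2 siRNA, against 928 ± 27.5 CPM with Luc siRNA (log2 fold change 0.45, edgeR adjusted p = 1.76e-06). Igfbp3 rose by 0.59 (edgeR adjusted p = 8.1e-05). The insulin receptor substrate Irs2 fell by 0.24 (edgeR adjusted p = 0.00285). Igf1r, the receptor for both ligands, had 2 to 6 counts per library and was not tested.

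In the LIN28, let-7 and HMGA axis 16 of 30 listed genes were tested, with a median log2 fold change of 0.15. Calls were 6 higher and 2 lower, beside 18.8% higher and 20.1% lower over all tested genes. Nras, a RAS gene with let-7 sites in its mRNA, rose by 0.50 (edgeR adjusted p = 2.29e-06), and Xpo5, which exports microRNA precursors from the nucleus, by 0.28 (edgeR adjusted p = 0.000108). The cell cycle genes Ccnd1 and Cdk6 fell by 0.40 and 0.34 (edgeR adjusted p = 4e-06 and 0.000263). Among mRNAs described as bound by IGF2BP proteins, 1 of 13 tested was called, beside 38.9% over all tested genes. Of 13 tested among 22, Hnrnpu was the only call (log2 fold change 0.16; edgeR adjusted p = 0.0188), and the median was -0.01. Between 0 and 2 were called on leaving out single libraries, 0 without Luc siRNA replicate 2 or Luc siRNA replicate 3 and 2 without Crebl2 siRNA replicate 3. Beta-actin (Actb), the first mRNA known to be bound by the Igf2bp1 homolog of chicken, was not called (log2 fold change -0.01; edgeR adjusted p = 0.905).

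Hepatoblast and progenitor markers were called in both directions. Of 28 listed, 17 were tested, 6 higher and 4 lower, beside 18.8% higher and 20.1% lower over all tested genes. Their median log2 fold change was 0.14. Lgr5, the Wnt-linked progenitor receptor, rose by 0.48 (141 ± 12.4 CPM with Crebl2 siRNA and 101 ± 3.35 CPM with Luc siRNA; edgeR adjusted p = 1.38e-05) and Krt19 by 0.30 (edgeR adjusted p = 0.00302). Krt7, the other biliary keratin, fell by 0.56 (edgeR adjusted p = 1.6e-06) and the transcription factor Sox4 by 0.27 (edgeR adjusted p = 0.000488). Both keratins are also among the cholangiocyte markers. Of the 4 tested of these, 2 were called higher and 1 lower, beside the same 18.8% and 20.1% over all tested genes. In the broader list of 27 oncofetal genes of liver cancer, 19 were tested, 4 higher and 4 lower. The called share was 42.1%, near the 38.9% of all tested genes. Of the 19, 6 are members described above, and the calls include Afp, Igf2bp1, Gpc3 and Igf2bp3. Topoisomerase Top2a rose by 0.50 (edgeR adjusted p = 1.89e-06), while the aldo-keto reductase Akr1b8 fell by 0.33 (edgeR adjusted p = 7.23e-05).

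Of 40 adult hepatocyte genes listed, only 10 passed the count filter, with a median log2 fold change of -0.29. Of these 5 fell and 2 rose, beside 20.1% lower and 18.8% higher over all tested genes. Fibrinogen beta (Fgb) was at 17.8, 17.1 and 16.0 CPM with Crebl2 siRNA, against 47.8, 43.1 and 44.5 CPM with Luc siRNA (log2 fold change -1.41; edgeR adjusted p = 4.45e-10). Transferrin (Trf) fell by 0.42 (edgeR adjusted p = 7.27e-05) and Ambp, the precursor of alpha-1-microglobulin, by 0.85 (edgeR adjusted p = 0.000941). Glutamine synthetase (Glul), the marker of hepatocytes around the central vein, rose to 2685 ± 65.1 CPM with Crebl2 siRNA, against 1875 ± 40.0 CPM with Luc siRNA (log2 fold change 0.52; edgeR adjusted p = 2.12e-07). Over all 12 lists, 107 of 210 distinct genes were tested, 29 of them higher and 25 lower. The called share was 50.5%, beside the 38.9% of all tested genes. The lists hold the tested members and were chosen with earlier results of these data known, so this share is no separate observation.

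**Figure D4:**
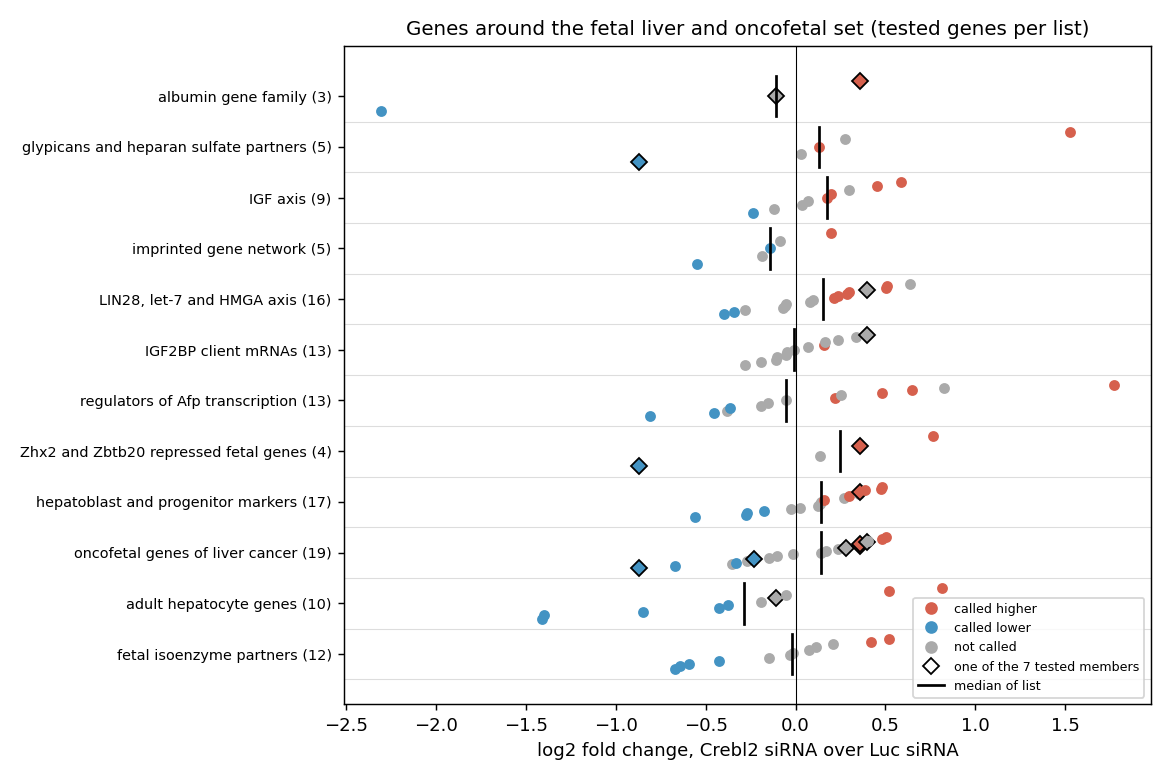
Log2 fold change, Crebl2 siRNA over Luc siRNA (x axis), of the tested genes in 12 lists (rows, number tested in brackets), coloured by edgeR call, with members as diamonds and list medians as black bars. Genes within a row are spread vertically only to separate them. Adult hepatocyte genes have the lowest median, -0.29, and Gpc3 and Afp lie on opposite sides of 0.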

How the data were processed

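Total RNA libraries were made with a stranded kit, per the labels. The authors deposited unnormalised read counts for each of 58611 Ensembl transcripts. Trim Galore, TopHat and HTSeq and the builds mm9 and GRCm38 appear in the submitters' processing notes with no version or role. The sources used here do not give the counting settings or use of strand.

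Row identifiers were matched to GENCODE M21 (58264 of 58611), and the counts were summed per gene. Unmatched rows, at most 0.0497% of a library, stayed as unnamed features. Testing used the quasi-likelihood method of edgeR 4.0.16 (R 4.3.3), two-sided, with TMM scaling, filterByExpr and Benjamini-Hochberg adjustment over 11616 genes, and called at an adjusted p under 0.05. Rows tested singly numbered 12542. The SE is the log2 fold change over the root of F. DESeq2 1.42.0 was an alternative. Both were tested on simulated data. Ratios used counts plus 0.5, with an exact permutation test (scipy 1.17.1). Intervals and floors of 3 counts cover counting error only, as PCR copies cannot be told from molecules. Replicates of a group differed beyond sampling noise (chi-square per gene 2.83 to 21.2), so none were merged.

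The members and lists were chosen with earlier results of these data known. The rule for named genes took all members and, per list, up to 4 called genes with the smallest p, plus genes that overlap a member's exons. No values are given for Aldoa, Igf2r, Impact and Mdk, which the rule also picks. Of the overlapping genes only Malsu1 is described. Genes named beyond that rule (Ttr, Apob, Cd24a, Zbtb20, H19, Meg3, Lin28a, Igf1r, Actb, Afm, Trim71, Nudt12, Trim6, D10Wsu102e) were chosen after their values were seen.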

Additional observations from a re-analysis of the deposited data

How the results depend on the processing

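The 4 member calls and the call for Crebl2 held in each of the alternatives run, namely RLE and library size scaling, DESeq2, no filter, a 1 CPM filter, the replicate block, single transcript rows (members only) and the removal of each library in turn. Igf2bp2 and Lin28b were called in none of them. The ratios were also taken with a pseudocount of 5. Log2 fold changes over all alternatives ran from 0.35 to 0.41 for Afp, 0.33 to 0.41 for Igf2bp1, -0.94 to -0.78 for Gpc3 and -0.28 to -0.17 for Igf2bp3, whose largest edgeR adjusted p was 0.0412. Alb, with log2 fold changes of -0.15 to -0.068 when single libraries were left out, was called only at -0.15, without Crebl2 siRNA replicate 1. The number of members called was 4 or 5 on leaving out single libraries, with 2 or 3 lower. Genes called over all genes ran from 3639 to 4640 in the same runs. Library size scaling shifted the median of all genes by 0.0487 and put 58.8% of calls upward, against 48.3% under TMM.

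Over the whole row length in place of its unique bases, the level was 7.91 CPM per kilobase with Crebl2 siRNA and 14.5 with Luc siRNA for Gpc3, 0.366 with Crebl2 siRNA and 0.301 with Luc siRNA for Igf2bp2, and 25.3 with Crebl2 siRNA and 29.6 with Luc siRNA for Igf2bp3. Replicate numbers gave no sign of pairing, with correlations of deviations of -0.133, -0.0443 and -0.0847 for equal numbers, and with the replicate block 3983 genes and the same 4 members were called. Of the 33 list genes picked by the naming rule, 26 were called in every alternative. Gpc4, Hnrnpu, Igf2r, Impact and Mdk were not called in at least 1, and Gc and Sulf1 were not tested under the 1 CPM filter. Low counts limit Igf2bp2 and Lin28b, and the small share of countable bases limits Igf2bp2, Igf2, Dlk1 and Hmga2.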

Other observations

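Igf2bp1 and Lin28b belong to the 8 tested genes with at least 4 let-7 seed matches in the 3' UTR, a group formed after the values were seen and described without a test. Of the 8, 2 were called higher and 0 lower, beside 18.8% higher and 20.1% lower over all tested genes, so the share called higher was near the background. Trim71, a let-7 target of stem cells, was at 8.55 CPM with Crebl2 siRNA and 6.01 CPM with Luc siRNA (log2 fold change 0.51; edgeR adjusted p = 0.00088). The other call was Igf2bp1. Nudt12, with 7 matches, had a log2 fold change of -0.03 and Trim6, with 6, of -0.07, and neither was called. The annotated 3' UTR of another of the 8, D10Wsu102e, runs to 122583 bases, far above the median of 1068 bases.

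Tumours and fetal liver use other isoenzymes than adult liver. Of 19 genes listed for such pairs, 12 were tested, with a median log2 fold change of -0.02. Calls were 2 higher and 4 lower, beside 18.8% higher and 20.1% lower over all tested genes. Gls2, the liver glutaminase, rose by 0.42 (edgeR adjusted p = 0.000307), and Slc2a1, the glucose transporter of fetal and tumour cells, fell by 0.42 (edgeR adjusted p = 0.000227). Fetal liver is a blood-forming organ, but these libraries come from a hepatoma line and hold no such tissue. Summed erythroid markers were at 3.06 to 3.94 CPM with Crebl2 siRNA and 1.03 to 1.54 CPM with Luc siRNA. The near-identical alpha-globin genes Hba-a1 and Hba-a2 were called higher, Klf1 was not called and both beta-globin genes were at 0. Their part in the results for the fetal liver genes was not tested.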
